A study of Mus musculus with 9 samples.

Results

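The glutathione S-transferase genes Gsta1, Gsta2, Gsta3, Gsta4, Gstm1, Gstm2, Gstm3, Gstm4, Gstp1 and Gstp2 were followed in mouse liver RNA across 3 genotypes. They were taken by name, 10 of the 52550 genes in each table. RNA sequencing covered 9 liver libraries from mice aged 320 days, 3 libraries for each genotype. The first group, called double mutant here, carried p53+/-;Tsc1fl/fl;Alb-Cre, which joins loss of 1 p53 allele with deletion of Tsc1. The second, called Tsc1-deleted, carried Tsc1fl/fl;Alb-Cre. The third was p53+/-, with no Cre named in its labels. With Alb-Cre, recombination follows the albumin promoter, active in hepatocytes and their precursors, so cells of other origin, such as Kupffer cells, keep the floxed Tsc1 gene. The study's description counts 6 groups with 3 samples each. The 3 analysed here hold no wild type, so each difference is between mutants. No label says that the libraries of 1 genotype are from different mice, and p-values measure only the spread between these libraries.

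Glutathione S-transferases join the tripeptide glutathione to electrophilic drugs, carcinogens and products of lipid peroxidation, which makes these compounds soluble and ready for export. The alpha, mu and pi classes are soluble enzymes that work as dimers and are abundant in liver. Their genes are known targets of NRF2, a transcription factor released from its inhibitor KEAP1 under oxidative stress, and of the xenobiotic receptors CAR and PXR. Tsc1 works with Tsc2 to hold back the growth kinase mTORC1, and p53 is a tumour suppressor.

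Several of these genes are near copies, and this bears on how reads of 50 bases can be placed. The reading frames of Gsta1 and Gsta2 on chromosome 9 matched at 97.5% of aligned bases, with 17 differences in 672, and those of Gstp1 and Gstp2 on chromosome 19 matched at 98.1%, with 12 differences in 633. Gm3776, also on chromosome 9, differed from Gsta1 at 2 bases. Gm10639 differed from Gsta2 at 10 of 669 bases. The stretch of 60 bases shown from each reading frame was chosen for holding the most positions that differ between the alpha copies. It is given in the sense direction of the GRCm38 transcripts, bases 469 to 528 of the frame, with capitals at the 6 positions where the 4 genes are not all alike.
Gsta1: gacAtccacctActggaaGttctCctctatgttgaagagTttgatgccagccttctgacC
Gsta2: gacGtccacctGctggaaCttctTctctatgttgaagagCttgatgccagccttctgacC
Gm3776: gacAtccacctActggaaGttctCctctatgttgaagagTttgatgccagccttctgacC
Gm10639: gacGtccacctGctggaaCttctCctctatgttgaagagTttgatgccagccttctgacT

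Over this stretch the letters of Gsta1 and Gm3776 are the same. For the pi pair the stretch chosen in the same way is the first 60 bases of the reading frames, again with capitals at the 6 positions that differ.
Gstp1: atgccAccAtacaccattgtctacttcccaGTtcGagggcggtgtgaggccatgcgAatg
Gstp2: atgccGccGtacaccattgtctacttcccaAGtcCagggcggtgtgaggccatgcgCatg

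Of all windows of 50 bases in its transcript, Gsta1 shared 89.7% with the transcripts of other genes, 82.9% with Gm3776 and 44.6% with Gsta2. The share was 64.2% for Gsta2, 62.3% for Gstp1, 72.6% for Gstp2, 33.0% for Gstm1, 28.8% for Gstm3 and 9.36% for Gstm2. Windows came from 1 transcript per gene, and in those of Gsta3, Gsta4 and Gstm4 none was shared. The assignment of reads with several equal matches is not given in the sources used, so levels of Gsta1, Gsta2, Gstp1, Gstp2 and their copies are uncertain relative to one another.

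The p53+/- libraries stood apart from the other 6 before any gene was compared. Nuclear protein-coding genes took 65.9 to 87.3% of the signal (FPKM times gene length) in the double-mutant and Tsc1-deleted libraries, against 7.43%, 6.63% and 61.8% in p53+/- libraries 1, 2 and 3, where mitochondrial genes took up to 68.0%. The estimated number of nuclear protein-coding reads was 10200000 to 14500000 in the double-mutant and Tsc1-deleted libraries, against 997000, 647000 and 7880000 in the p53+/- libraries. Alb, the plasma albumin gene that defines hepatocytes, stood at 8368 to 26384 rescaled FPKM in 8 libraries and at 199.5 in p53+/- library 3. Values are therefore given mainly as rescaled FPKM, in which each library's FPKM (fragments per length of gene and per library size) were multiplied so that its nuclear protein-coding genes sum to the same total. The factor was 0.957 to 1.05 in the Tsc1-deleted and double-mutant libraries, and 10.3, 11.1 and 1.33 in p53+/- libraries 1, 2 and 3. Tsc1 itself stood at 1.02, 1.13 and 1.04 rescaled FPKM in the double mutants and at 0.765, 0.965 and 0.912 in the Tsc1-deleted livers, below the 1.51, 2.81 and 1.33 of the p53+/- livers. As deposited, the Tsc1 order was not the same, with 1.04 to 1.14 FPKM in the double mutants, 0.767 to 0.953 in the Tsc1-deleted livers and 0.147 to 0.993 in the p53+/- livers. Trp53, the p53 gene, reached 9.32, 5.83 and 6.90 rescaled FPKM in the double mutants, 7.05, 8.98 and 15.7 in the Tsc1-deleted livers and 5.45, 5.50 and 20.6 in the p53+/- livers, and these ranges overlap. Both values count the whole gene, including parts outside any deletion. Xist, the RNA of the inactive X chromosome of females, was at 24.9, 0.010 and 28.4 rescaled FPKM in the double mutants, at 24.0, 0.009 and 0.003 in the Tsc1-deleted livers, and at 0.229, 76.8 and 0.242 in the p53+/- livers, so the groups were not of equal sex composition.

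All 10 genes were detected in every library and passed the filter of at least 1 rescaled FPKM in at least 3 libraries. Their lowest rescaled value was 2.49 FPKM, for Gsta2 in p53+/- library 3. Over the 6 libraries with Tsc1 deleted, Gstm1 had the highest mean, 2372 rescaled FPKM, followed by Gstp1 with 1078. Gstm3 averaged 495, Gsta1 391.5, Gstp2 285 and Gsta2 226. Gsta3 averaged 175, Gsta4 93.5, Gstm2 78.9 and Gstm4 55.0. FPKM is a level per length, so these means can be set beside each other, within the limit on near copies. Most neighbours in this order had overlapping ranges over the 6 libraries. The ranges of Gstm1 (1418 to 3578) and Gstp1 (682 to 1570.5) overlapped. That of Gstp1 lay above the range of Gstp2 (179.7 to 417) and of each alpha gene, of which Gsta1 reached highest with 643.

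**Figure D1:**
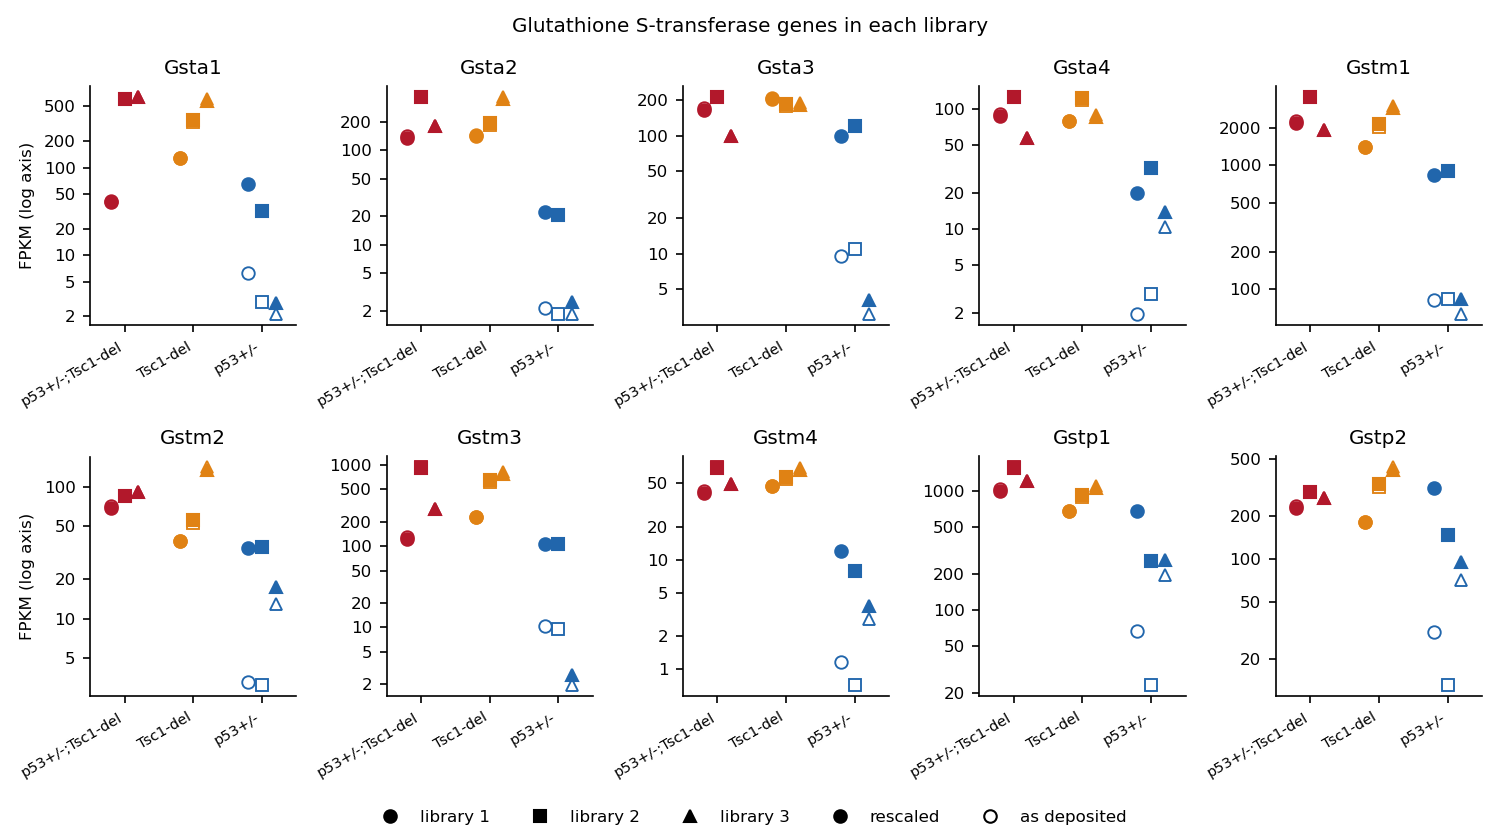
Level of each of the 10 genes in every library, in FPKM on a log axis, with the double mutant (p53+/-;Tsc1-del) left, Tsc1-deleted (Tsc1-del) in the middle and p53+/- right. Filled symbols are rescaled and open symbols are as deposited, and each shape is 1 library number. The p53+/- symbols lie lowest for most genes, while those of the double mutant and of the Tsc1-deleted livers mix for all 10.

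The double mutant was compared first with Tsc1 deletion alone, which asks what loss of 1 p53 allele adds. None of the 10 genes passed on the rescaled scale (limma, Benjamini-Hochberg adjustment over the 12591 genes tested, threshold 0.05), and for every one of them the libraries of both groups overlapped. Of all genes tested, 0.0159% were called higher and 0% lower, and 4.12% had an unadjusted p under 0.05, while no member did. Without overlap between the groups, 12.9% of all genes tested were higher and 3.42% lower in the double mutant. As deposited no member passed either, with 0.0166% of all genes called higher and 0.00832% lower. The differences ran from -0.60 for Gstm3 (SE 1.30, adjusted p = 0.941) to 0.50 for Gstp1 (SE 0.62, adjusted p = 0.909) on the log2 scale of rescaled FPKM + 1. Their median was -0.13, against 0.26 over all genes (lower quartile -0.014), and 3 of 10 were positive. Standard errors ran from 0.44 for Gstm4 to 1.30 for Gstm3, so the missed threshold does not show that levels were alike. In this fit the spread of each gene also draws on the p53+/- libraries. With only the 6 libraries compared, standard errors ran from 0.30 for Gstm4 to 1.05 for Gsta1. The lowest adjusted p was then 0.465 by limma, for Gstp1. No member had an unadjusted p under 0.05 in that fit, while 1492 of 11560 genes did.

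**Figure D2:**
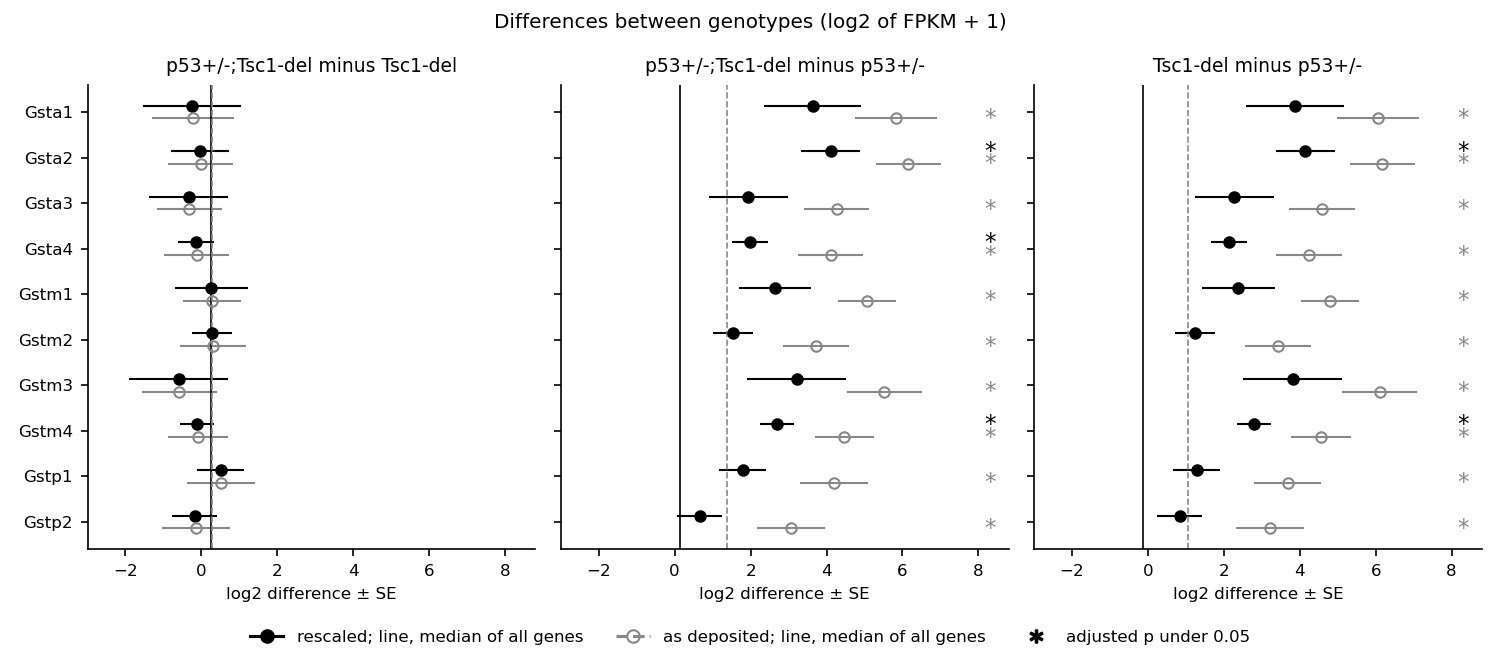
Log2 difference of FPKM + 1 with its standard error for each gene in the 3 comparisons, black on the rescaled and grey on the deposited scale. Vertical lines give the median of all genes tested, and stars mark an adjusted p under 0.05. On the rescaled scale 0, 3 and 2 genes carry a star from left to right, and as deposited 0, 10 and 10.

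Against p53+/-, 3 of the 10 genes rose in the double mutant on the rescaled scale, Gsta2, Gstm4 and Gsta4, and 2 rose in the Tsc1-deleted livers, Gsta2 and Gstm4. No member fell. Over all genes, the double mutant had 2.46% called higher and 2.28% called lower, and the Tsc1-deleted livers had 0.318% and 0.794%. Groups did not overlap for 7 members in the double mutant (16.6% of all genes were higher without overlap) and for 9 in the Tsc1-deleted livers (8.33% of all genes). The median difference of the 10 was 2.32 in the double mutant and 2.33 in the Tsc1-deleted livers, where the median of all genes was 0.15 and -0.13. The 2 comparisons share the p53+/- libraries, so their values are not independent of each other. As deposited, all 10 passed and none overlapped in both comparisons, with 31.9% of all genes called higher for the double mutant and 12.1% for Tsc1 deletion, 41.3% and 27.4% higher without overlap in the same order, and medians over all genes of 1.38 and 1.07. The calls over all genes were then 3838 higher and 54 lower for the double mutant, against 310 and 287 on the rescaled scale, and 1459 higher and 11 lower for Tsc1 deletion, against 40 and 100. In bulk tissue, fewer cells of a type and less RNA per cell cannot be told apart.

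Among the alpha class, Gsta2, an enzyme of electrophile conjugation, had 134.7, 361 and 179.2 rescaled FPKM in the double mutants and 142.4, 192.0 and 347 in the Tsc1-deleted livers, against 22.02, 20.5 and 2.49 in the p53+/- livers. The lowest library with Tsc1 deleted lay above the highest p53+/- library. The difference was 4.11 on the log2 scale (SE 0.77, limma adjusted p = 0.0252) in the double mutant and 4.15 (SE 0.77, adjusted p = 0.0465) in the Tsc1-deleted livers. With the replicate number as a block, the adjusted p for Tsc1 deletion was 0.0574, which misses the threshold. Summed with its near copy Gsta1, Gsta2 passed in neither comparison (adjusted p = 0.0563 for the double mutant and 0.0898 for Tsc1 deletion). As deposited the p53+/- values were 2.14, 1.85 and 1.87 FPKM, which is about 35.6, 23.2 and 29.4 reads, a depth at which counting error alone is sizeable.

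Gsta4, which acts on hydroxynonenal, an aldehyde of lipid peroxidation, stood at 87.0, 125.6 and 57.4 rescaled FPKM in the double mutants and 79.9, 124.9 and 86.2 in the Tsc1-deleted livers, against 20.0, 32.1 and 13.9 in the p53+/- livers. Again the p53+/- libraries were all lower. The gain over p53+/- was 1.99 (SE 0.47, limma adjusted p = 0.0454) in the double mutant, and it missed the threshold with median-ratio scaling (adjusted p = 0.0603), quantile normalization (0.0501) or Xist as a covariate (0.0704). It was 2.14 (SE 0.47) in the Tsc1-deleted livers with an adjusted p of 0.0588, which misses the threshold.

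Gsta1 varied most among the 6 libraries with Tsc1 deleted. It reached 40.1, 605 and 643 rescaled FPKM in the double mutants and 129.5, 349 and 583 in the Tsc1-deleted livers, against 65.2, 32.3 and 2.81 in the p53+/- livers. Double-mutant library 1 lay below p53+/- library 1, so those groups overlapped. The differences from p53+/- were 3.63 (SE 1.29, limma adjusted p = 0.132) in the double mutant and 3.88 (SE 1.29, adjusted p = 0.154) in the Tsc1-deleted livers, larger than those of Gsta4 but with wider errors.

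Gsta3, the alpha enzyme that protects mice from the mould toxin aflatoxin, had 165.6, 211.9 and 98.7 rescaled FPKM in the double mutants and 206.5, 187.4 and 181.2 in the Tsc1-deleted livers, against 99.1, 121.6 and 4.08 in the p53+/- livers. Here p53+/- libraries 1 and 2 lay above double-mutant library 3, so p53+/- and the double mutant overlapped, and p53+/- library 3 stood alone. Its difference from p53+/- was 1.94 (SE 1.05, limma adjusted p = 0.306) in the double mutant and 2.28 (SE 1.05, adjusted p = 0.289) in the Tsc1-deleted livers. Without p53+/- library 3 it was 0.46 (SE 0.36, adjusted p = 0.364) in the double mutant and 0.80 (SE 0.36, adjusted p = 0.192) in the Tsc1-deleted livers.

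In the mu class, Gstm4 rose. It had 40.6, 69.5 and 49.8 rescaled FPKM in the double mutants and 46.8, 57.1 and 66.2 in the Tsc1-deleted livers, against 11.98, 7.91 and 3.79 in the p53+/- livers. The 6 libraries with Tsc1 deleted lay within 1.71-fold of each other, the narrowest range of the 10 genes. Its differences from p53+/- were 2.69 (SE 0.44, limma adjusted p = 0.0219) in the double mutant and 2.80 (SE 0.44, adjusted p = 0.0377) in the Tsc1-deleted livers. As deposited, p53+/- library 2 held 0.712 FPKM of Gstm4, about 13.0 reads.

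Gstm1, the most abundant of the 10 genes, had 2221, 3578 and 1936 rescaled FPKM in the double mutants and 1418, 2156 and 2923 in the Tsc1-deleted livers, against 836, 906 and 82.3 in the p53+/- livers. Every library with Tsc1 deleted was above every p53+/- library, yet the spread within p53+/- was 11.01-fold. The differences from p53+/-, 2.64 (SE 0.95, limma adjusted p = 0.137) in the double mutant and 2.38 (SE 0.95, adjusted p = 0.226) in the Tsc1-deleted livers, did not pass. Without p53+/- library 3 the difference for the double mutant was 1.51 (SE 0.42, adjusted p = 0.0307).

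Gstm3 had 122.6, 919 and 288 rescaled FPKM in the double mutants and 228.8, 647 and 768 in the Tsc1-deleted livers, against 106.5, 105.0 and 2.62 in the p53+/- livers. Double-mutant library 1 was close to p53+/- libraries 1 and 2. It differed from p53+/- by 3.21 (SE 1.30, limma adjusted p = 0.177) in the double mutant and by 3.81 (SE 1.30, adjusted p = 0.163) in the Tsc1-deleted livers.

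Gstm2 stood at 68.4, 84.4 and 91.9 rescaled FPKM in the double mutants and 38.6, 55.8 and 134.1 in the Tsc1-deleted livers, against 34.1, 34.9 and 17.2 in the p53+/- livers. The groups were apart, but Tsc1-deleted library 1 was only just above p53+/- library 2. The difference was 1.53 (SE 0.53, limma adjusted p = 0.123) in the double mutant and 1.24 (SE 0.53, adjusted p = 0.251) in the Tsc1-deleted livers.

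Gstp1 encodes the pi enzyme, whose rat counterpart is known as a marker of early liver tumour foci. It had 1001, 1570.5 and 1221 rescaled FPKM in the double mutants and 682, 933 and 1059 in the Tsc1-deleted livers, against 679, 259.8 and 262 in the p53+/- livers. The lowest Tsc1-deleted library and the highest p53+/- library were nearly level. Gstp1 differed from p53+/- by 1.79 (SE 0.62, limma adjusted p = 0.127) in the double mutant and by 1.29 (SE 0.62, adjusted p = 0.314) in the Tsc1-deleted livers. Without p53+/- library 3 the difference for the double mutant was 1.56 (SE 0.45) with an adjusted p of 0.0342.

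Gstp2, the other pi gene, had 224.7, 291.6 and 265 rescaled FPKM in the double mutants and 179.7, 333 and 417 in the Tsc1-deleted livers, against 314, 145.4 and 94.6 in the p53+/- livers. It alone overlapped in both comparisons with p53+/-. Its differences, 0.67 (SE 0.59, limma adjusted p = 0.549) in the double mutant and 0.84 (SE 0.59, adjusted p = 0.491) in the Tsc1-deleted livers, were the smallest of the 10. The ratio of Gstp1 to Gstp2 was 4.46, 5.39 and 4.61 in the double mutants, 3.80, 2.80 and 2.54 in the Tsc1-deleted livers and 2.16, 1.79 and 2.77 in the p53+/- livers. The double-mutant ratios were above all others, a description on which no test was run.

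The size of these differences depended on which p53+/- libraries were kept, and the calls also on the others. Leaving out any 1 of the double-mutant libraries, or p53+/- library 2, took the 3 calls of the double mutant to 0. The share of all genes called higher was then 0.201 to 0.302%, against 2.46% with all 9 libraries. For the Tsc1-deleted livers, leaving out any 1 of the 9 libraries except p53+/- library 3 took the 2 calls to 0. There the share of all genes called higher fell to between 0.0162 and 0.137%, from 0.318% with all 9 libraries. Without library 3, 5 genes rose in the double mutant, Gsta2, Gsta4, Gstm1, Gstm4 and Gstp1, and 18.1% of all genes did. In the Tsc1-deleted livers 3 rose without library 3, Gsta2, Gsta4 and Gstm4, beside 4.56% of all genes. Gsta2 then differed by 3.22 (SE 0.48, limma adjusted p = 0.00314) in the double mutant and 3.26 (SE 0.48, adjusted p = 0.0057) in the Tsc1-deleted livers. Gstm4 differed by 2.30 (SE 0.33, adjusted p = 0.00266) in the double mutant and 2.41 (SE 0.33, adjusted p = 0.00399) in the Tsc1-deleted livers. Set against p53+/- library 3 alone, 9 genes rose in the double mutant (9.64% of all genes) and 10 in the Tsc1-deleted livers (9.38% of all genes), a fit in which that single library is assumed to vary like the other groups. With only the 6 libraries of each comparison in the fit, none passed, and 0.323% of all genes were called higher in the double mutant and 0.0435% in the Tsc1-deleted livers. Then Gsta2 had limma adjusted p = 0.0783 in the double mutant and 0.117 in the Tsc1-deleted livers, with 7 and 5 of the 10 genes at an unadjusted p under 0.05, as were 19% and 13.6% of all genes. The direction was higher than p53+/- for all 10 genes under each of these choices.

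**Figure D3:**
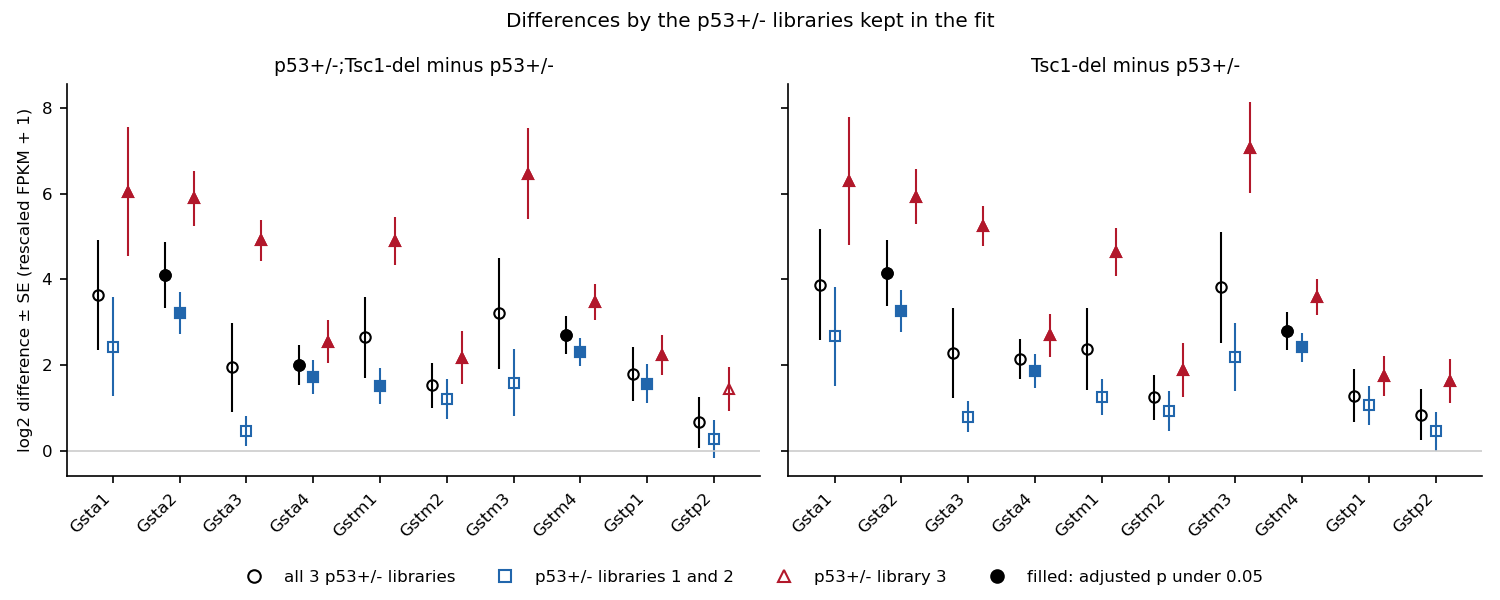
Log2 difference from p53+/- with its standard error for the double mutant (left) and the Tsc1-deleted livers (right), with all 3 p53+/- libraries, with libraries 1 and 2, or with library 3. Filled symbols passed an adjusted p of 0.05. Gsta2 and Gstm4 are filled under all 3 choices in both panels, while Gsta3 falls to 0.46 and 0.80 with libraries 1 and 2.

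Summed over their class, the 4 alpha genes came to 427, 1304 and 978 rescaled FPKM in the double mutants and 558, 853 and 1197 in the Tsc1-deleted livers, against 206.3, 206.5 and 23.3 in the p53+/- livers. The 4 mu genes summed to 2452, 4651 and 2365 in the double mutants and 1733, 2915 and 3891 in the Tsc1-deleted livers, against 989, 1054 and 106.0 in the p53+/- livers. The pi pair summed to 1226, 1862 and 1487 in the double mutants and 862, 1266 and 1476 in the Tsc1-deleted livers, against 993, 405 and 357 in the p53+/- livers. Against p53+/-, only the pi sums overlapped, and only for the Tsc1-deleted livers. Between the double mutant and the Tsc1-deleted livers the sums of each class overlapped. The 10 genes together made up 1.45, 2.76 and 1.71% of the nuclear protein-coding FPKM in the double mutants and 1.11, 1.78 and 2.32% in the Tsc1-deleted livers, against 0.773, 0.589 and 0.172% in the p53+/- livers. Of this sum, mu genes held 49.0 to 59.7% in the double mutants and 55.0 to 59.3% in the Tsc1-deleted livers. The pi pair held 22.5 to 30.8% in the libraries with Tsc1 deleted, against 45.4, 24.3 and 73.4% in p53+/- libraries 1, 2 and 3. The alpha genes held 9.43, 12.4 and 4.79% in those p53+/- libraries, of which library 3 is the one low in Alb. Gstp1 was at 55.6 to 182.6 FPKM per 1000 FPKM of Alb in the double-mutant and Tsc1-deleted libraries, against 29.8, 9.85 and 1314 in the p53+/- libraries. On the same footing and in the same order, Gsta2 was at 11.6 to 42.0, against 0.966, 0.778 and 12.5. Gsta4 was at 4.89 to 14.9, against 0.875, 1.22 and 69.6, and Gstm4 at 3.81 to 8.08, against 0.526, 0.300 and 19.0. Per Alb, p53+/- library 3 was therefore not below the double-mutant and Tsc1-deleted libraries for these genes, while p53+/- libraries 1 and 2 were.

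**Figure D4:**
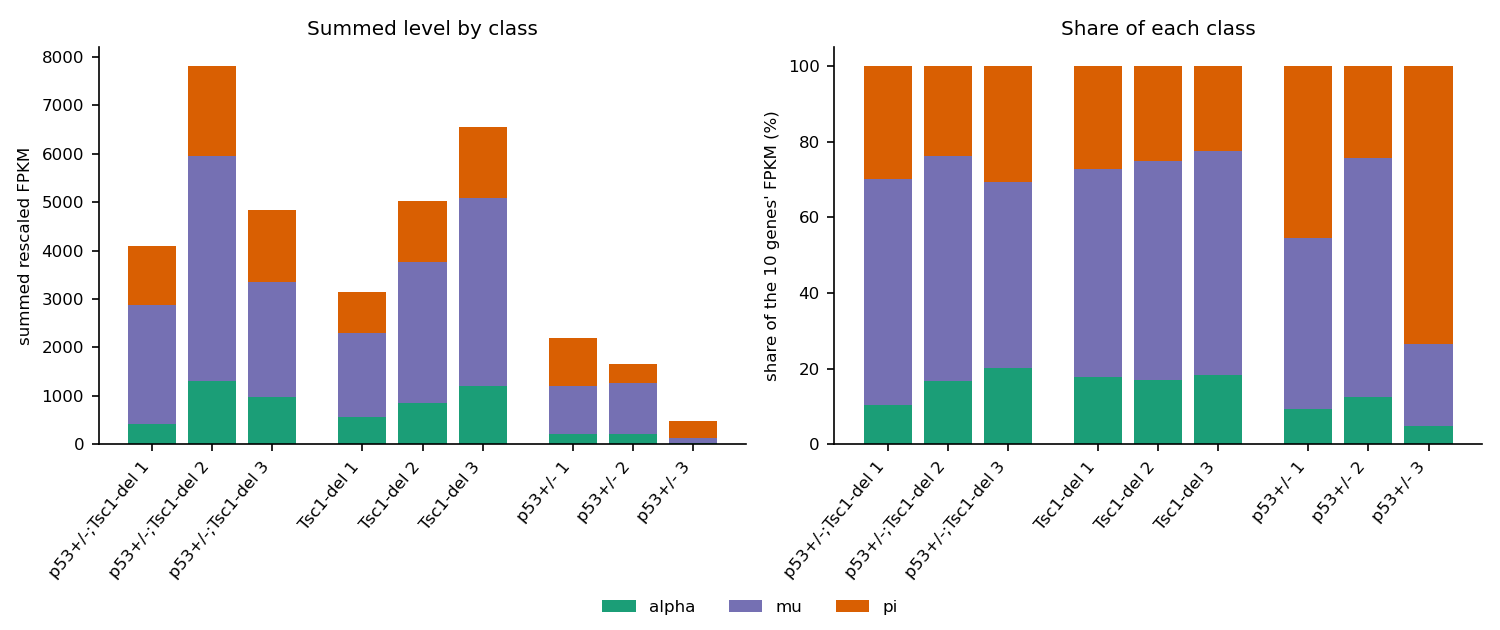
Sum of the alpha, mu and pi genes in each library in rescaled FPKM (left) and as a share of the 10 genes in percent (right), with libraries in the order double mutant, Tsc1-deleted and p53+/-. The sums are 4106, 7817 and 4829.8, then 3153, 5034 and 6564, then 2188, 1666 and 486. The pi share is highest in p53+/- library 3, followed by p53+/- library 1.

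Within the 6 libraries with Tsc1 deleted, the members differed in how evenly they were expressed. Gsta1 spanned 16.1-fold, from double-mutant library 1 at the low end to double-mutant library 3 at the high end, a wider range than 99.1% of all genes tested. Gstm3 spanned 7.49-fold, wider than 97.0% of genes, with both ends again in the double mutant. The other 8 spanned 1.71-fold to 3.47-fold, where the median gene spanned 2.04-fold (ranks and this median are of values with 1 FPKM added). Gsta1 and its close copy Gsta2 did not keep 1 ratio: Gsta1 over Gsta2 was 0.297, 1.68 and 3.59 in the double mutants, 0.909, 1.82 and 1.68 in the Tsc1-deleted livers and 2.96, 1.58 and 1.13 in the p53+/- livers. In contrast, Gsta1 over Gm3776 stayed between 1.12 and 1.79 in all 9 libraries. Gm3776 shares most windows with Gsta1, and how far both levels rest on the same reads was not tested.

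The genes whose pattern over the 9 libraries lay nearest to each class lead were found by the root mean square difference of mean-centred log2 values. For Gsta1, the alpha lead, these were Gm3776 (0.187), the water channel gene Aqp8 (0.499) and the listed mu gene Gstm3 (0.806), where the median of all tested genes was 2.49. Aqp8 had 14.002, 201.3 and 343 rescaled FPKM in the double mutants, 132.1, 191.8 and 229.3 in the Tsc1-deleted livers, and 49.0, 17.1 and 1.72 in the p53+/- livers. It was thus also low in double-mutant library 1. For Gstm1, the mu lead, the nearest were the aldehyde oxidase gene Aox3 (0.359), the pyruvate carboxylase gene Pcx (0.364) and the peroxisomal oxidase gene Acox2 (0.365), with a median of 1.71 over all genes. For Gstp1, the pi lead, they were Igsf5 (0.225), Edem1 (0.247) and Dnajc22 (0.247), with a median of 1.034. Gstp2 lay at 0.510 from Gstp1, and Gsta2 at 0.977 from Gsta1. All points share the libraries and their depth, and no test was run on these distances.

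**Figure D5:**
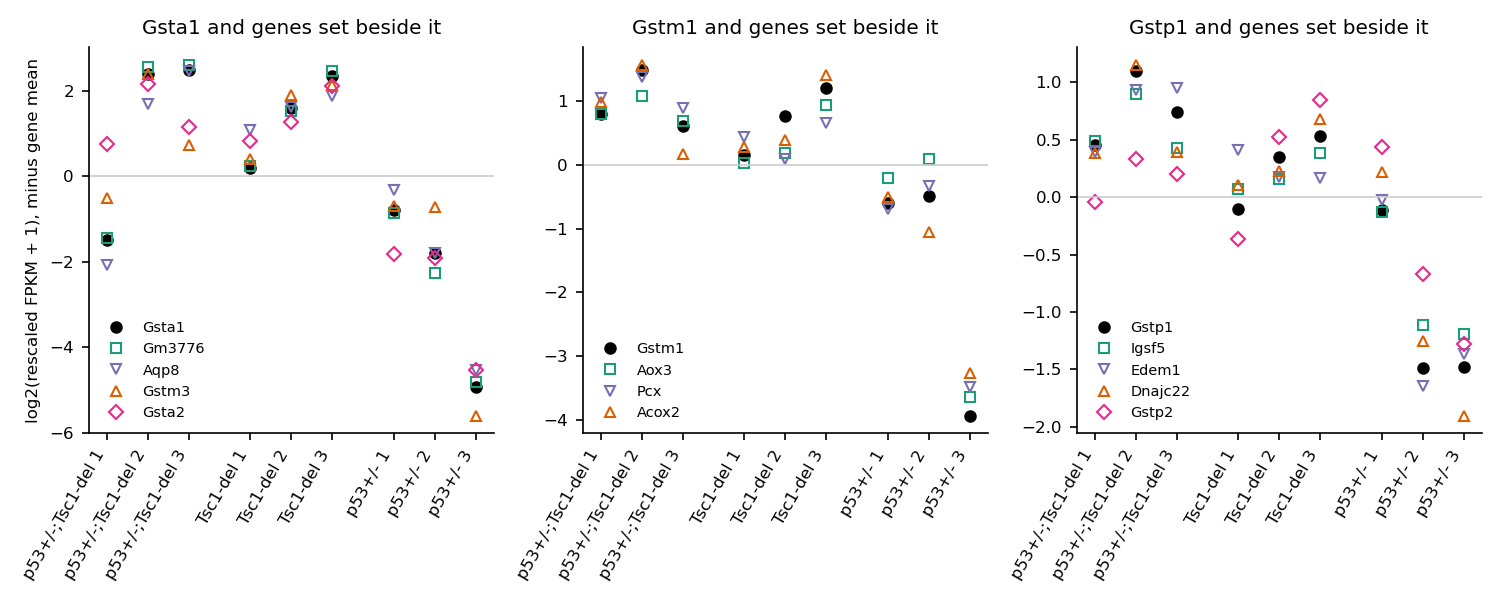
Log2(rescaled FPKM + 1) minus each gene's mean, for the class leads Gsta1, Gstm1 and Gstp1 (filled) with the 3 nearest genes of each and, for alpha and pi, the close copy Gsta2 or Gstp2. Libraries run from double mutant to Tsc1-deleted to p53+/-. In double-mutant library 1, Gsta1, Gm3776 and Aqp8 lie further below the other libraries with Tsc1 deleted than Gsta2, which is also lowest there.

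Of the other glutathione transferase and membrane transferase genes, 20 were in the tables and 16 were tested. In each comparison with p53+/-, 1 of the 16 rose, Gm10639, a near copy of Gsta2. How far both levels rest on the same reads was not tested. Gm10639 holds 44.5% of the windows of 50 bases in the Gsta2 transcript. It had 10.3, 53.9 and 47.6 rescaled FPKM in the double mutants and 12.2, 17.2 and 48.0 in the Tsc1-deleted livers, against 2.30, 0 and 0 in the p53+/- livers, with limma adjusted p = 0.0223 for the double mutant and 0.0473 for Tsc1 deletion. Their median difference was 0.87 in the double mutant and 0.88 in the Tsc1-deleted livers, lower than the 2.32 and 2.33 of the 10 listed genes. Between the double mutant and the Tsc1-deleted livers none passed, and the median was -0.14.

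Some genes of glutathione supply rose in the double mutant. Of 17 tested genes of glutathione synthesis and turnover, 3 rose against p53+/- and none fell, with a median of 1.44. Over all genes 2.46% were called higher there, with a median of 0.15. Gclm encodes the modifier subunit of the rate-limiting ligase of glutathione synthesis. It had 23.1, 34.4 and 37.7 rescaled FPKM in the double mutants and 21.9, 14.8 and 17.2 in the Tsc1-deleted livers, against 3.70, 9.31 and 6.96 in the p53+/- livers (limma log2 difference 2.14, adjusted p = 0.0242 for the double mutant). Gss, which completes glutathione, differed by 1.76 (adjusted p = 0.0454). Ggt1, which breaks glutathione down outside cells, had 30.3, 27.2 and 13.6 rescaled FPKM in the double mutants and 1.91, 7.75 and 3.66 in the Tsc1-deleted livers, against 0.121, 0 and 0.443 in the p53+/- livers. The double-mutant Ggt1 values lay above the rest, with adjusted p = 0.0048 against p53+/- and 0.898 against the Tsc1-deleted livers. None of the 17 passed in the Tsc1-deleted livers against p53+/- (median 1.23) or between the double mutant and Tsc1 deletion (median 0.41).

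None of 6 tested glutathione peroxidase genes, which reduce peroxides, passed in any comparison. Gpx3 had 619, 244.7 and 403 rescaled FPKM in the double mutants and 1834, 1615 and 992 in the Tsc1-deleted livers, against 136.9, 63.0 and 312 in the p53+/- livers. The 3 double-mutant Gpx3 values were all below the Tsc1-deleted ones (limma log2 difference -1.86, adjusted p = 0.898). Gpx1 ranged from 240.1 to 488 rescaled FPKM in the double mutants, from 56.5 to 797 in the Tsc1-deleted livers and from 155.7 to 271 in the p53+/- livers.

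Among 9 regulators of the NRF2 pathway, Sqstm1 rose in the double mutant against p53+/-. It encodes p62, which binds KEAP1. Its levels were 342, 340.0 and 369 rescaled FPKM in the double mutants and 153.8, 205.7 and 388 in the Tsc1-deleted livers, against 66.7, 71.1 and 91.6 in the p53+/- livers (limma log2 difference 2.19, adjusted p = 0.0404). No other regulator passed in any comparison. Of 26 NRF2 targets that are not glutathione transferases, 6 rose in the double mutant against p53+/- and 1 in the Tsc1-deleted livers, and none fell. Over all genes, 2.46% and 0.318% were called higher in the same order. Ephx1, a microsomal epoxide hydrolase, was the 1 gene to pass in both, with 423, 529 and 419 rescaled FPKM in the double mutants and 364, 377 and 408 in the Tsc1-deleted livers, against 86.3, 38.4 and 24.3 in the p53+/- livers (limma adjusted p = 0.0209 for the double mutant and 0.0418 for Tsc1 deletion). Cbr3, a carbonyl reductase, and Htatip2 also rose in the double mutant, by 3.74 and 2.44 on the log2 scale. The median of this list against p53+/- was 1.64 in the double mutant and 1.31 in the Tsc1-deleted livers, where that of all genes was 0.15 and -0.13. Between the double mutant and Tsc1 deletion its median was 0.66, with 24 of 26 differences positive and none past the threshold. Over all genes the median was 0.26 and the lower quartile -0.014, so most genes were positive there too. The listed transferases had a median of -0.13 in that comparison.

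Of 7 exporters of conjugates, Abcc4 rose in the double mutant against p53+/-, with 37.2, 53.5 and 34.8 rescaled FPKM in the double mutants and 5.90, 7.56 and 20.6 in the Tsc1-deleted livers, against 2.07, 1.17 and 5.94 in the p53+/- livers (limma adjusted p = 0.0191). Abcc4 is also among the NRF2 targets counted above, so it is not a separate result. Of 14 tested xenobiotic receptors and their targets, none passed in the double mutant (median 0.47) and Cyp2b10, a target of CAR, rose in the Tsc1-deleted livers (median of the list 1.06). Cyp2b10 had 0.746, 9.80 and 4.58 rescaled FPKM in the double mutants and 17.3, 6.43 and 18.4 in the Tsc1-deleted livers, against 0, 0.986 and 0.133 in the p53+/- livers (adjusted p = 0.0473 for Tsc1 deletion).

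Markers of liver zones, sex and cell types were set beside these results, and their part in the transferase differences was not tested. None of 13 perivenous genes passed, with a median of -0.69 between the double mutant and Tsc1 deletion and, against p53+/-, of -0.47 in the double mutant and 0.47 in the Tsc1-deleted livers. Of 11 periportal genes, Hsd17b13 rose in the double mutant against p53+/- (limma adjusted p = 0.0456). None of 5 male-biased or 6 female-biased genes passed. Mup20, the male-biased major urinary protein gene, had 71.2, 719.5 and 32.7 rescaled FPKM in the double mutants, 2927, 3575 and 2838 in the Tsc1-deleted livers and 2345, 33.8 and 55.4 in the p53+/- livers. In each genotype the libraries with Xist had less Gstp1 than the libraries without it, the narrowest gap being 259.8 against 262 rescaled FPKM in p53+/-. With Xist as a covariate, 2 of the 10 genes rose in the double mutant against p53+/- (1.4% of all genes), and 8 had an unadjusted p under 0.05, as did 22.1% of all genes. None passed in the Tsc1-deleted livers by limma (0.0238% of all genes were called higher), where 6 of the 10 and 16.6% of all genes had an unadjusted p under 0.05.

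None of 10 hepatocyte markers passed. Sums run over all listed markers, tested or not. The summed level of the hepatocyte list was 21932 to 26758 rescaled FPKM in the double mutants, 25829 to 41725 in the Tsc1-deleted livers and 822 to 52217 in the p53+/- livers, and none of the 10 was at 0 in any library. Of 7 tested cholangiocyte markers, Cldn7 rose in the double mutant (adjusted p = 0.0492 by limma) and the summed level was 998 to 3561 in the double mutants, 539 to 2626 in the Tsc1-deleted livers and 114.0 to 2568 in the p53+/- livers. Cldn7 was at 0 in p53+/- libraries 1 and 2. None of 9 Kupffer cell and macrophage markers passed, with sums of 158.4 to 593 in the double mutants, 146.5 to 346 in the Tsc1-deleted livers and 291 to 2095 in the p53+/- livers, the highest in p53+/- library 3. Vsig4 was at 0 in that library, and Timd4 in double-mutant library 2 and Tsc1-deleted library 3. Of 9 stellate cell and fibroblast markers, Des fell in the double mutant against p53+/- (adjusted p = 0.0321 by limma), and the sums were 14.5 to 110.0 in the double mutants, 46.5 to 78.9 in the Tsc1-deleted livers and 82.3 to 957 in the p53+/- livers, again highest in library 3. None of 6 endothelial markers passed, with sums of 5.43 to 29.4 in the double mutants, 23.0 to 27.7 in the Tsc1-deleted livers and 32.7 to 88.3 in the p53+/- livers, and Lyve1 was at 0 in p53+/- library 2. None of 5 erythroid markers passed, although their sum was 23.5 to 474 in the libraries with Tsc1 deleted, against 10391, 21905 and 115.5 in the p53+/- libraries. Of 5 lymphocyte markers, Cd3g fell in both comparisons with p53+/- (limma adjusted p = 0.0201 for the double mutant and 0.0338 for Tsc1 deletion), with sums of 5.12 to 22.2 in the double mutants, 9.74 to 16.2 in the Tsc1-deleted livers and 29.5 to 85.0 in the p53+/- livers.

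Promoter windows from RefSeq, 250 bases before to 50 after each annotated start in GRCm38.p6, were at hand for 9 of the 10 genes, as 11 windows. They were searched on both strands for TGACNNNGC, a form of the core of the antioxidant response element through which NRF2 acts. Other forms of the core were not searched. TGACNNNGC was found in 1 of the 11 windows, that of Gsta3, and in 12.4% of all 32851 promoter windows of the same length. The Gsta3 window, chr1:21240335-21240634 on the plus strand, is shown with the match in capitals, which starts 121 bases before the gene's start.
Gsta3: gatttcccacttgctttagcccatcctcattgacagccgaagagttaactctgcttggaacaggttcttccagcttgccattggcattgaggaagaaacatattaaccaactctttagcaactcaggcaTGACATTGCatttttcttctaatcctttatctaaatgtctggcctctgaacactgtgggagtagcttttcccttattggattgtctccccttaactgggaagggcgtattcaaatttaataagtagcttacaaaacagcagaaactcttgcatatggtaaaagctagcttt

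The Gsta2 window, chr9:78347096-78347395 on the minus strand, belongs to the gene with the largest difference from p53+/- and holds no match.
Gsta2: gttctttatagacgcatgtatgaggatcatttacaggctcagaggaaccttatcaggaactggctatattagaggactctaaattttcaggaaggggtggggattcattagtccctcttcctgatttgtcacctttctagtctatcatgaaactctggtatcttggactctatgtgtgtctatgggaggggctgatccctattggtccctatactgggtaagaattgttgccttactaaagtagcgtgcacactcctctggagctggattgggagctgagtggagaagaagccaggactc

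A missing match says only that these letters are not in this window.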

How the data were processed

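RNA sequencing of mouse liver gave 1 table per library for 9 libraries, with single reads of 50 cycles after ribosomal RNA depletion, per the labels' protocols, although the molecule is labelled polyA RNA. The deposited values were read from their totals as FPKM, made by the authors with cutadapt, STAR and StringTie on mm9, per the submitters' processing notes. Versions, strand and the handling of reads with several matches are not given in the sources used here. Depth, estimated from the step 1 read makes, was 10700000 to 18300000 reads per library. No counts were used. Symbols came from GENCODE mouse release 21 (52403 of 52550 identifiers matched), a later build, so no coordinates of the tables are printed. Sequences came from GENCODE transcripts (longest reading frame) and RefSeq promoters.

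FPKM were rescaled to equal nuclear protein-coding totals (21806 genes), the filter was 1 rescaled FPKM in 3 libraries, and log2(rescaled FPKM + 1) was fitted with limma 3.58.1 in R 4.3.3, with trend and robust moderation, all 9 libraries in 1 fit. A log2 difference with a pseudocount of 1 understates changes of low genes. Adjusted p-values are Benjamini-Hochberg over all genes tested, with a threshold of 0.05. The fit was run on simulated data with shifts planted in the double mutant and read only against Tsc1 deletion. Each simulated gene had the same spread in all groups, so the comparisons with p53+/- and unequal spread were not covered. The members and gene lists were chosen with earlier results of these data known. Besides the 10 members, Trp53, Tsc1 and Xist, the genes named were up to 4 per list that passed, up to 2 with the highest means where none did, and the 3 nearest to each class lead. No label pairs libraries across genotypes, but the titles number them alike. Deviations of same-numbered libraries correlated at 0.17, 0.11 and 0.35 between Tsc1-deleted and p53+/-, and a replicate block is reported for that comparison. Pairs with different numbers there correlated at -0.31 to 0.30, so these values do not show pairing. Same-numbered pairs with the double mutant correlated at -0.20 to 0.27 and were not taken as paired. Alternatives were other scalings, pseudocounts, filters and sets of libraries, a replicate block and an Xist covariate. Python 3.11.15, pandas 2.3.3, numpy 2.4.6, Biopython 1.88 and matplotlib 3.10.9 were used.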

Additional observations from a re-analysis of the deposited data

How the results depend on the processing

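Direction held in all 29 alternatives for each of the 10 genes in both comparisons with p53+/-, while calls did not. Against p53+/-, 3 members passed in the double mutant and 2 in the Tsc1-deleted livers. These counts were 10 and 10 as deposited, 0 and 0 with no filter and with only the 6 libraries compared, 9 and 10 without p53+/- libraries 1 and 2, and 10 and 10 as deposited without p53+/- library 3. As deposited without p53+/- library 3, 94.3% of all genes tested were called higher in the double mutant and 91.5% in the Tsc1-deleted livers. The 10 calls in that setting therefore do not set the members apart from other genes. Tsc1 deletion gave 1 with a pseudocount of 0.1 and 0 with the Xist covariate. With Gsta1 and Gsta2, and Gstp1 and Gstp2, summed, the counts were 2 and 1, and neither sum passed. Leaving out 1 library gave 0 to 5 members for the double mutant and 0 to 5 for Tsc1 deletion, reaching 5 only without p53+/- library 3. The adjusted p of Gsta2 ran from 6.2e-06 to 0.373 in the double mutant (under 0.05 in 17 of 29 alternatives) and that of Gstm4 from 5.7e-06 to 0.373 (18 of 29), while Gsta4 was under 0.05 in 10 of 29. For Tsc1 deletion Gsta2 was under 0.05 in 10 and Gstm4 in 13 of 29.

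Over all genes the double mutant had 597 calls against p53+/- and Tsc1 deletion 140. They were 3892 and 1470 as deposited, 1030 and 389 with median-ratio scaling, 1131 and 384 with quantile normalization, 32 and 4 with no filter, 54 and 7 with only the 6 libraries, 350 and 7 with Xist, 3260 and 4214 without p53+/- libraries 1 and 2, and 11037 and 10700 as deposited without p53+/- library 3. Tsc1 deletion gave 50 with a pseudocount of 0.1. Its split of 40 higher and 100 lower was 229 and 160 with median-ratio scaling. Leaving out 1 library gave 0 to 2990 and 0 to 1089. Without p53+/- library 3 the counts were 2990 and 1089, and without library 2 they were 73 and 4. Between the double mutant and Tsc1 deletion 2 genes passed, 0 with a pseudocount of 0.1 or a filter at 5, 5 as deposited without p53+/- library 3, and 0 to 1438 with 1 library left out, the highest without Tsc1-deleted library 3 among 6 libraries. The causes were not tested.

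In that comparison no member passed under any alternative, and the sign turned under some of them for all members but Gsta3 and Gstp1. Gsta1 went furthest past 0, from -0.24 to 1.06 without double-mutant library 1. Gsta1 and Gsta2 summed differed by 0.0080 and Gstp1 and Gstp2 summed by 0.36. Median-ratio scaling gave -0.095 for Gstm1 and -0.064 for Gstm2. Gsta2 was 0.039 with quantile normalization and 0.0041 with Xist. With 1 library left out the ranges were -0.92 to 1.06 for Gsta1, -0.44 to 0.31 for Gsta2, -0.42 to 0.14 for Gsta4, -0.013 to 0.51 for Gstm1, -0.096 to 0.79 for Gstm2, -1.36 to 0.086 for Gstm3, -0.31 to 0.066 for Gstm4 and -0.52 to 0.082 for Gstp2.

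A replicate block gave 73 genes and 1 member, Gstm4, for Tsc1 deletion against p53+/-, 3 members for the double mutant against p53+/-, and 1 gene and 0 members between the double mutant and Tsc1 deletion. In p53+/- libraries 1 and 2 the low nuclear depth limits genes with few reads, Gsta2, Gsta4 and Gstm4 among them.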
